A study of Mus musculus with 2 samples.

Results

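The genes described here were 10 targets of the transcription factor Nrf2 and enzymes of glutathione metabolism, namely Nqo1, Gclc, Gclm, Txnrd1, Srxn1, Hmox1, Gsr, Gsta1, Gstm1 and Gstp1. They were taken by symbol from the 32285 genes of the expression matrices by a rule that uses names alone, and each was listed once in both matrices. They were followed in single-cell RNA sequencing of livers from WT mice and from littermates lacking miR-33 in hepatocytes (HKO, labelled AlbCRE), both kept on CD-HFD, a high-fat diet without choline that brings about fatty liver disease, for 6 months from 8 weeks of age. In HKO mice Cre under the albumin promoter recombines floxed miR-33 alleles, so the deletion is directed to hepatocytes. Mature miR-33 is not counted by these libraries, and the sources used here do not say whether the WT littermates carried the floxed alleles. Each genotype was 1 library prepared from the pooled cells of 3 livers, so differences between genotypes have no replicate check and were not tested. Every interval given below is a 95% interval that covers counting error only.

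Nrf2, encoded by Nfe2l2, is held in the cytoplasm by Keap1 and degraded until oxidants or electrophiles modify Keap1, after which it enters the nucleus, pairs with a small Maf protein and binds antioxidant response elements. Its targets make and use glutathione, the abundant thiol with which the liver neutralizes peroxides and reactive drug metabolites. Gclc and Gclm form the enzyme that limits glutathione synthesis, Gsr returns oxidized glutathione to its reduced form, and the glutathione S-transferases Gsta1, Gstm1 and Gstp1 couple it to electrophiles. Txnrd1 and Srxn1 keep the thioredoxin and peroxiredoxin systems reduced, Nqo1 reduces quinones and Hmox1 degrades heme. Hepatocytes near the central vein carry most of the liver's drug metabolism, whereas those near the portal vein carry much of its urea and glucose production.

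The WT library held 30078 barcodes with 130451427 unique molecular identifiers (UMIs) and the HKO library 20000 barcodes with 52563185 UMIs. Of these, 20098 WT and 10218 HKO barcodes of no other class lay below a depth set for each library (5309 UMIs in WT, 1632 in HKO). They were set aside as free RNA, taken as droplets that hold only RNA released into the suspension. No test for empty droplets was run here. Hepatocyte-like barcodes came to 1803 for WT and 3558 for HKO, with a median of 20810 and 4220 UMIs. All 8 hepatocyte markers (Alb, Apoa1, Ttr, Serpina1c, Cyp2e1, Fgb, Ahsg and Trf) were detected in both, with a summed level of 74357 and 59606 CPM (UMIs per 1000000 UMIs), against 21.9 and 21.3 CPM for 11 macrophage markers. The hepatocyte markers do not tell these barcodes from free RNA, in which they summed to 72376 CPM in WT and 63293 in HKO. All 8 were also detected in T and NK-like barcodes. Erythroid markers summed to 765 CPM in WT and 2576 in HKO hepatocyte-like barcodes. The depth difference between the libraries goes with genotype, and its part in the results was not tested.

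The members lie on 6 chromosomes of the mouse build GRCm38 (mm10) in the GENCODE M21 annotation. Gclc (chr9:77754535-77794485) and Gsta1 (chr9:78230656-78242684) lie on chromosome 9, and Gclm (chr3:122245557-122270732) and Gstm1 (chr3:108012255-108017973) on chromosome 3. Nqo1 (chr8:107388225-107403206), Hmox1 (chr8:75093621-75100589) and Gsr (chr8:33652523-33698163) lie on chromosome 8. Srxn1 (chr2:152105516-152111376), Txnrd1 (chr10:82833951-82897712) and Gstp1 (chr19:4035407-4037985) stand alone on theirs. Gstp1, Gstm1 and Nqo1 are read from the minus strand. Reads of Gsta1 can be shared with Gsta2 and those of Gstp1 with Gstp2, which are near-identical copies, so the levels of both members are uncertain to that extent.

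RefSeq promoter windows (GRCm38.p6, from 250 bases before to 50 bases after a start) were at hand for 7 of the 10 members, as 10 windows, and were read for the core of the antioxidant response element, TGACNNNGC, on both strands. The core was found in 1 window each of Gclm, Srxn1 and Txnrd1, in each case on the reverse strand, where it reads GCNNNGTCA. Over all 32851 windows of this length, 12.4% held it. The stretches around the matches are shown because Nrf2 binds elements with this core, and the capitals mark the match, which is a match of letters and not a shown binding site. The match began 134 bases before the start of Gclm (chr3:122245378-122245476, plus strand) and 92 bases before 1 of the 3 starts of Txnrd1 (chr10:82859069-82859167, plus strand), and 28 bases after that of Srxn1 (chr2:152105542-152105570, plus strand). This start of Txnrd1 lies downstream of the gene's first base given above. The other two windows of Txnrd1 and those of Gsta1, Gstm1, Gstp1 and Nqo1 held no match, which says only that these letters were not in these windows.
Gclm: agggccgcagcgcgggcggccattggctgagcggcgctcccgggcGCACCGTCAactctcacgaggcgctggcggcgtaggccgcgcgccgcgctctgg
Txnrd1: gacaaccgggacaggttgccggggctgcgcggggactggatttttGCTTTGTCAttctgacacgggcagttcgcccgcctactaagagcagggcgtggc
Srxn1: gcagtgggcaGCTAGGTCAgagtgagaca

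To determine how the genes differed between genotypes, UMIs were summed over the hepatocyte-like barcodes of each library and expressed in CPM. Gstp1 and Gsta1 were higher in HKO, Srxn1 was lower, and the other members lay within 1.5-fold. Of the 8 members with a mean of at least 10 CPM, 2 were at least 1.5-fold higher, against 2.38% of the 7072 genes at that level, and 1 was at least 1.5-fold lower, against 4.34% of those genes. The median log2 ratio was -0.06 over the 8 members and -0.03 over the 7072 genes. With no depth minimum the medians were -0.45 and -0.09. The median covers members that lay on either side of 1.

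Among the glutathione S-transferases, Gstp1 stood at 117 CPM in WT and 205 in HKO, and HKO over WT was 1.75 (1.68 to 1.82). Gsta1 stood at 33.6 in WT and 52.2 in HKO, and HKO over WT was 1.55 (1.44 to 1.67). A single HKO barcode held 122 of the 1315 Gsta1 UMIs, and without the highest barcode of each library Gsta1 was no longer past 1.5-fold, nor was it without barcodes under 2% mitochondrial UMIs or with no depth minimum, where its ratio was 1.06. Gstm1 was nearly level, with 1161 and 1140 CPM. The 3 transferases therefore did not move as a block between the libraries.

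The subunits of glutamate-cysteine ligase differed in direction. Gclc, the catalytic subunit, was lower in HKO, with 503 CPM in WT and 383 in HKO and a ratio of 0.762 (0.744 to 0.780). Gclm, the modifier subunit, was higher, with 279 and 330 CPM and a ratio of 1.18 (1.15 to 1.22). Neither reached 1.5-fold. Gsr, which regenerates reduced glutathione, stood at 71.0 and 66.8 CPM, and HKO over WT was 0.940 (0.886 to 0.997), which turned to 1.02 without barcodes under 2% mitochondrial UMIs.

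Srxn1, the sulfiredoxin that repairs overoxidized peroxiredoxins, was the member past 1.5-fold in the lower direction, with 31.3 CPM in WT and 19.5 in HKO and a ratio of 0.622 (0.561 to 0.690), which was 0.711 with barcodes weighted equally. Txnrd1, the cytosolic thioredoxin reductase, stood at 87.1 and 73.0, and HKO over WT was 0.839 (0.793 to 0.886). Both enzymes of the thioredoxin and peroxiredoxin branch were thus lower in the HKO library, Txnrd1 by less than the fold used here.

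Nqo1 and Hmox1, the members most often used as readouts of Nrf2, were scarce in hepatocyte-like barcodes. Nqo1 stood at 7.38 CPM in WT and 8.42 in HKO, from 348 and 212 UMIs, with a ratio whose interval included 1 (1.14, 0.958 to 1.36). Hmox1 stood at 7.02 and 9.73, from 331 and 245 UMIs, and HKO over WT was 1.39 (1.17 to 1.64). With barcodes thinned to 1500 UMIs that ratio was 2.11. Both fell below the level at which genes were counted. In WT, 23 barcodes with 3 or more Hmox1 UMIs held 33.8% of all Hmox1 UMIs, and in HKO 7 barcodes held 19.2%. Macrophage markers summed to 37.1 CPM in those WT barcodes and 21.4 in the others, and to 0 and 21.4 in HKO.

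**Figure D1:**
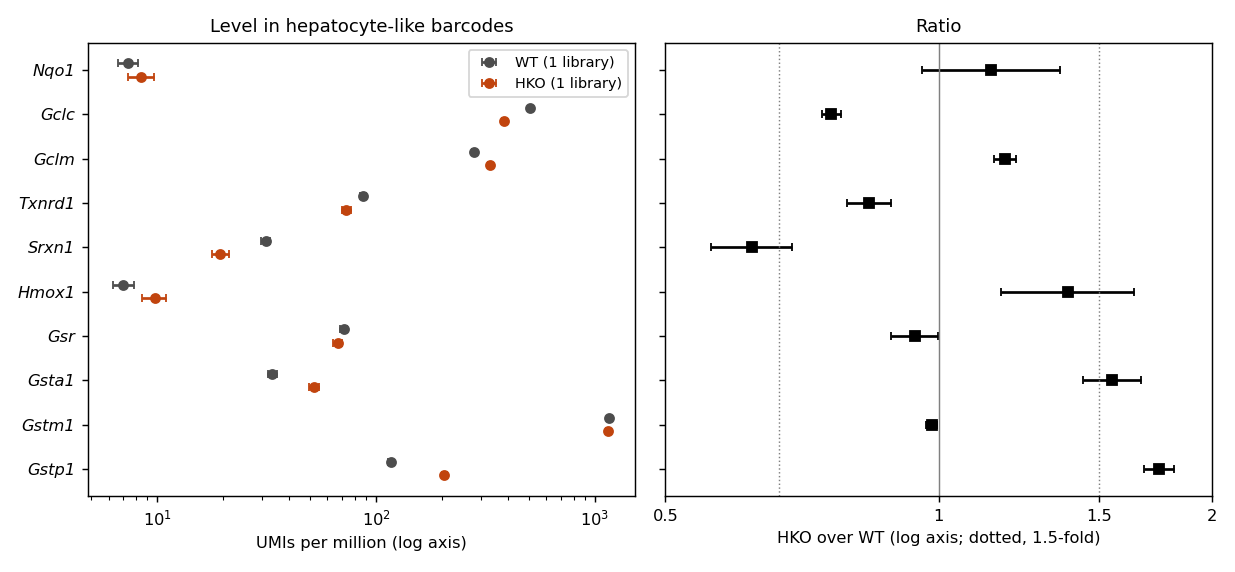
Left, CPM (log axis) of the 10 members in hepatocyte-like barcodes of the WT and HKO libraries, 1 library each. Right, HKO over WT (log axis) with dotted lines at 1.5-fold. Bars are 95% intervals for counting error. Gstp1 at 1.75 and Gsta1 at 1.55 lie past the upper line and Srxn1 at 0.622 past the lower one.

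The barcodes of free RNA depth were read as a reference for what the suspension itself carried. They were set apart by depth alone, so shallow cells were not told from empty droplets. At depths between the limits of 1632 and 5309 UMIs, WT barcodes counted as free RNA and HKO barcodes as hepatocyte-like. In free RNA Gstp1 was again higher in HKO, with 108 CPM in WT and 149 in HKO, and HKO over WT was 1.38 (1.31 to 1.47). Gsta1 went the other way there, with 55.6 and 37.4, and HKO over WT was 0.673 (0.603 to 0.750). Gstm1 was lower in HKO by more than in the hepatocyte-like barcodes, with 1802 and 934, and HKO over WT was 0.518 (0.507 to 0.529). Srxn1 at 0.450 (0.386 to 0.523) and Gclc at 0.576 (0.556 to 0.598) were lower in HKO, as in the hepatocyte-like barcodes. Gclm, higher in HKO in hepatocyte-like barcodes, was lower in free RNA, with 330 and 260 CPM and a ratio of 0.790 (0.758 to 0.823). Txnrd1 at 0.654 (0.606 to 0.706) and Gsr at 0.623 (0.575 to 0.675) were lower in HKO by more than in the hepatocyte-like barcodes. Nqo1 at 0.815 (0.634 to 1.03) and Hmox1 at 1.18 (0.929 to 1.49) had intervals that included 1. Gstp1, Srxn1, Gclc, Txnrd1 and Gsr thus kept their direction in free RNA, and Gsta1 and Gclm did not.

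Hepatocyte-like barcodes differed widely in the share of UMIs from mitochondrially encoded genes, with a median of 12.1% in WT and 9.71% in HKO. To ask whether the members followed it, levels were taken as CPM of non-mitochondrial UMIs and compared between the tertile of barcodes with the highest and the tertile with the lowest share in each library. All 3 glutathione S-transferases were at least 1.5-fold lower in the high tertile of both libraries, 3 of the 8 members counted, against 12.4% of 7262 genes, and none was at least 1.5-fold higher in both, against 6.9% of those genes. The median log2 ratio of the 8 members was -0.41 in WT and -0.48 in HKO, whereas that of all 7262 genes was 0.20 and 0.17. With barcodes thinned to 1500 UMIs the ratio of Gstm1 in WT was 0.681, short of 1.5-fold.

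Gstp1 was lower from tertile to tertile in both libraries. From the low through the middle to the high tertile it stood at 171, 140 and 51.3 CPM of non-mitochondrial UMIs in WT and at 450, 216 and 105 in HKO, ratios of high over low of 0.300 (0.271 to 0.331) and 0.233 (0.213 to 0.254). At up to 30% mitochondrial UMIs the WT ratio of Gstp1 was 0.486. Gsta1 stood at 46.6, 41.9 and 16.9 in WT and at 130, 47.1 and 28.1 in HKO, ratios of 0.362 (0.302 to 0.432) and 0.217 (0.183 to 0.256), and thinned to 1500 UMIs the WT ratio was 0.207. Gstm1 stood at 1528, 1365 and 884 in WT and at 1911, 1250 and 995 in HKO, ratios of 0.579 (0.564 to 0.593) and 0.521 (0.504 to 0.538). For each transferase the order of the tertiles was the same in both libraries.

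Other transferases outside the group were read beside them. Gsta2, the near copy of Gsta1, stood at 94.4 in the low and 48.5 in the high tertile in WT and at 169 and 61.4 in HKO. Gsta4 went from 65.9 to 24.8 in WT and from 95.9 to 30.7 in HKO. Mgst1, a membrane-bound transferase, differed from these, with 3955 and 3925 in WT and 2501 and 3830 in HKO. The lower level at high mitochondrial share was therefore seen in several soluble transferases and not in this membrane-bound one.

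Gclc went the other way, with 511, 611 and 647 CPM of non-mitochondrial UMIs from low to high in WT and 377, 441 and 516 in HKO. Its ratios were 1.26 (1.22 to 1.31) and 1.37 (1.29 to 1.45), but per all UMIs the WT ratio was 0.906, on the other side of 1. Gclm was highest in the middle tertile in WT, with 257, 431 and 249, and nearly level across the lower tertiles in HKO, with 408, 407 and 332. Srxn1 was lower in the high tertile of both libraries by less than 1.5-fold, with ratios of 0.723 (0.623 to 0.837) in WT and 0.718 (0.557 to 0.925) in HKO. Within the middle tertile of the zone ranking described below, the HKO ratio of Srxn1 was 1.00 (0.623 to 1.61). The ratio of high over low for Gclm was 0.969 (0.920 to 1.02) in WT and 0.812 (0.764 to 0.864) in HKO, but at up to 30% mitochondrial UMIs it reached 1.5 in WT and 0.982 in HKO, so that in WT it then lay on the same side of 1 as Gclc.

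The remaining members were less regular between the libraries. Txnrd1 had a ratio of high over low of 1.00 (0.921 to 1.09) in WT and 0.720 (0.635 to 0.817) in HKO, and Gsr 0.780 (0.709 to 0.859) in WT and 1.06 (0.924 to 1.21) in HKO. With barcodes thinned to 1500 UMIs Gsr had 1.01 in WT and 1.11 in HKO. Nqo1 had 0.912 (0.665 to 1.24) in WT and 1.73 (1.14 to 2.67) in HKO. Hmox1 had 1.61 (1.22 to 2.14) in WT and 1.37 (0.950 to 1.99) in HKO. Thinned to 1500 UMIs Hmox1 in WT had 3.32, and over the alternatives Nqo1 in HKO ranged from 1.13 to 2.65. In each of these members the interval of at least 1 library included 1, and the difference between libraries was not tested.

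**Figure D2:**
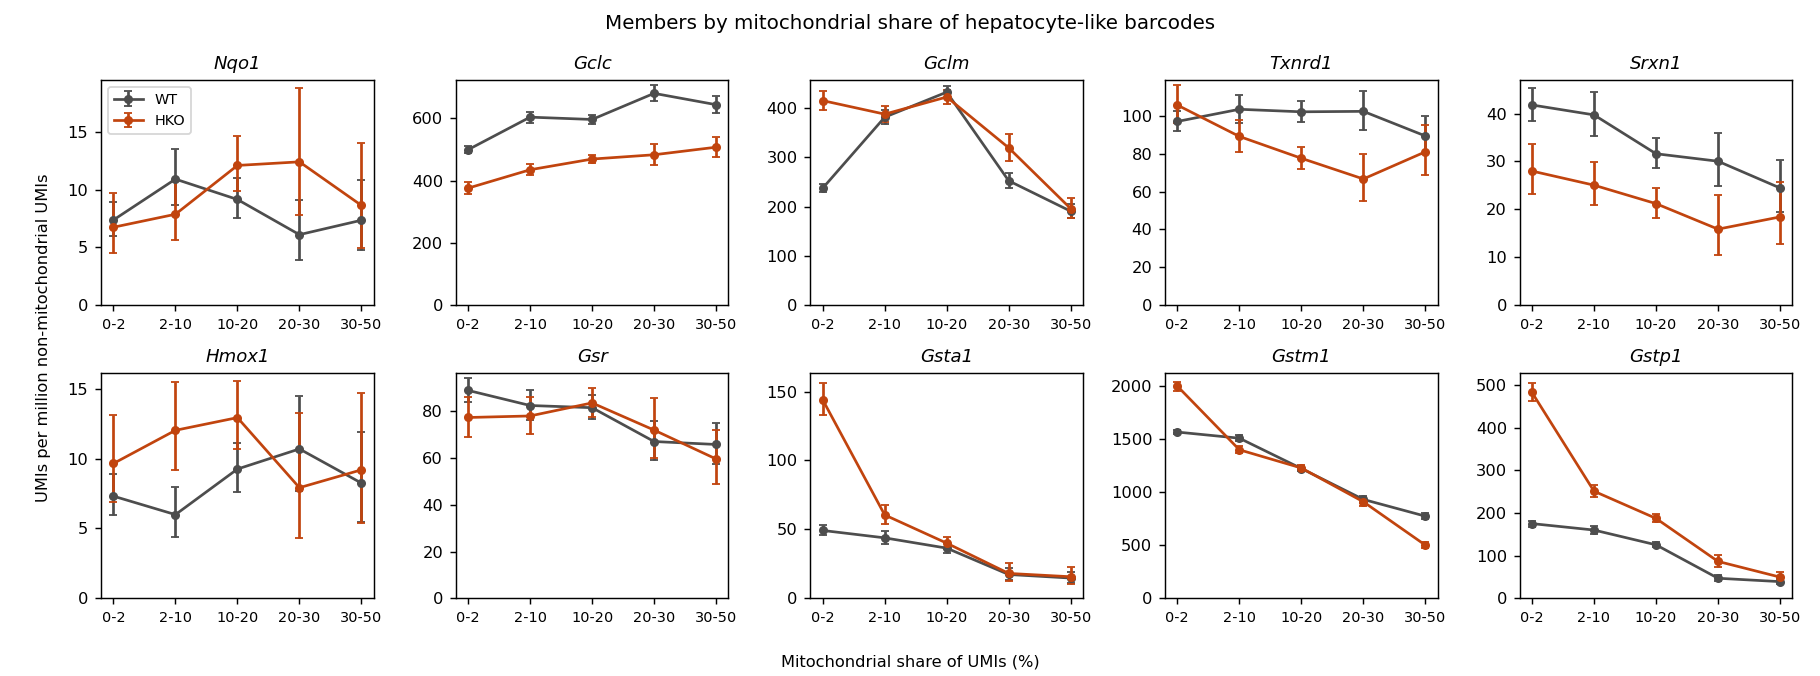
CPM of non-mitochondrial UMIs of each member in 5 bins of mitochondrial share (0 to 2, 2 to 10, 10 to 20, 20 to 30 and 30 to 50%) of hepatocyte-like barcodes, WT in grey and HKO in orange, 1 library each, with 95% intervals for counting error. Gstp1 in HKO goes from 482 in the lowest bin to 49.8 in the highest, while Gclc goes from 376 to 507.

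Other properties of the barcodes moved with mitochondrial share, and their part in these differences was not tested. Ribosomal protein genes summed to 43387 CPM of non-mitochondrial UMIs in the low tertile and 21074 in the high tertile of WT, and to 71835 and 37438 in HKO. Alb, the main secreted protein of hepatocytes, went from 34344 to 53515 in WT and from 15522 to 42013 in HKO. Malat1, an RNA retained in the nucleus, stood at 8019, 4430 and 9683 from low to high in WT and at 11388, 4072 and 6611 in HKO. In WT the ribosomal sum was highest in the middle tertile, at 50402, and in HKO in the low one. The high tertile had the least ribosomal protein RNA and the most Alb in both libraries. Median depth from low to high was 21125, 25048 and 18890 UMIs in WT and 2548.5, 6786 and 5562.5 in HKO.

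Transcript length also moved with the ratio. The median length of protein-coding transcripts was 806 bases for Gstp1, 875 for Gsta1 and 883 for Gstm1, against 3423 for Gclc, 3325 for Txnrd1, 2812 for Srxn1, 2673 for Gsr and 1002 for Gclm. Gclm has 5 annotated coding transcripts, the longest of 5589 bases, and Gstm1 has 3, the longest of 1289. Their length class thus depends on the transcript taken. Over all genes counted with a known length (7080 of 7262), those under 1000 bases had a median high over low ratio of 0.748 in WT and 0.779 in HKO, and those over 4000 bases 1.51 and 1.28. Genes of 2000 to 4000 bases, the class of Gclc, Txnrd1, Srxn1 and Gsr, had 1.24 and 1.20, so the ratios of Gclc lay near the median of its length class and those of Srxn1 below it. Of the genes under 1000 bases, 42.7% in WT and 43.0% in HKO were at least 1.5-fold lower in the high tertile, as the 3 transferases were. Across genes, which are not replicates and share each library's barcodes and depth, Spearman's rho between length and ratio was 0.524 in WT and 0.377 in HKO.

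To see whether the genotype differences depended on this state, HKO was compared with WT within 5 bins of mitochondrial share. Gsta1 was higher in HKO mainly where mitochondrial share was low, whereas Gstp1 was higher, and Gclc and Srxn1 lower, across the bins. The bins were not alike as backgrounds. At 0 to 2%, 1.5-fold was passed upward in HKO by 17.2% and downward by 14.6% of all genes at 10 or more CPM, and at 10 to 20% these shares were 1.52% and 4.12%. The median depth at 0 to 2% was 25862 UMIs in WT and 2592 in HKO. Alb stood there at 33444 and 14429 CPM of non-mitochondrial UMIs, and ribosomal protein genes summed to 42839 and 74397. The part of these in the ratios of that bin was not tested.

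Gsta1 stood at 49.3 in WT and 144 in HKO in the 0 to 2% bin, and HKO over WT was 2.92 (2.62 to 3.27), which was 1.38 (1.18 to 1.61) at 2 to 10% and 1.10 (0.953 to 1.27), 1.05 (0.665 to 1.61) and 1.07 (0.650 to 1.72) in the bins above. The HKO barcode with 122 Gsta1 UMIs was among those under 2%, at 0.321% mitochondrial UMIs and a depth of 18064. It also held 551 Gstm1, 9 Gsta2 and 32 Alb UMIs. The highest WT barcode, with 87 Gsta1 UMIs, likewise had a low share, 0.233%, and held 416 Alb UMIs at a depth of 44301. Alb made up less of either barcode than of its bin, where it stood at 14429 CPM of non-mitochondrial UMIs in HKO and 33444 in WT. Whether these barcodes were typical hepatocytes was not tested. Gsta1 was thus unevenly spread over barcodes in both libraries, with 65.2% of its WT and 59.9% of its HKO UMIs in barcodes holding 3 or more.

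Gstp1 had ratios of 2.75 (2.59 to 2.92), 1.57 (1.45 to 1.70), 1.49 (1.39 to 1.60), 1.84 (1.47 to 2.29) and 1.27 (0.963 to 1.67) from the lowest to the highest bin. It was above 1 in each bin, and the interval included 1 in the highest one. Gclc had ratios of 0.752, 0.720, 0.786, 0.710 and 0.788 in the same order, all with intervals below 1, and Srxn1 0.669, 0.630, 0.670, 0.527 and 0.752, the last with an interval that included 1 (0.489 to 1.13). Gclc had the narrowest range of these members over the bins.

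For Gclm and Gstm1 the comparison of genotypes differed between bins. Gclm stood at 237 in WT and 416 in HKO at 0 to 2%, and HKO over WT was 1.75 (1.65 to 1.86), and at 433 and 423 at 10 to 20%, and HKO over WT was 0.977 (0.937 to 1.02). Gstm1 had ratios of 1.28 (1.24 to 1.31) at 0 to 2%, 1.00 (0.979 to 1.03) at 10 to 20% and 0.648 (0.600 to 0.698) at 30 to 50%. The near level values of Gstm1 in the summed libraries therefore held bins with higher and bins with lower levels in HKO.

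**Figure D3:**
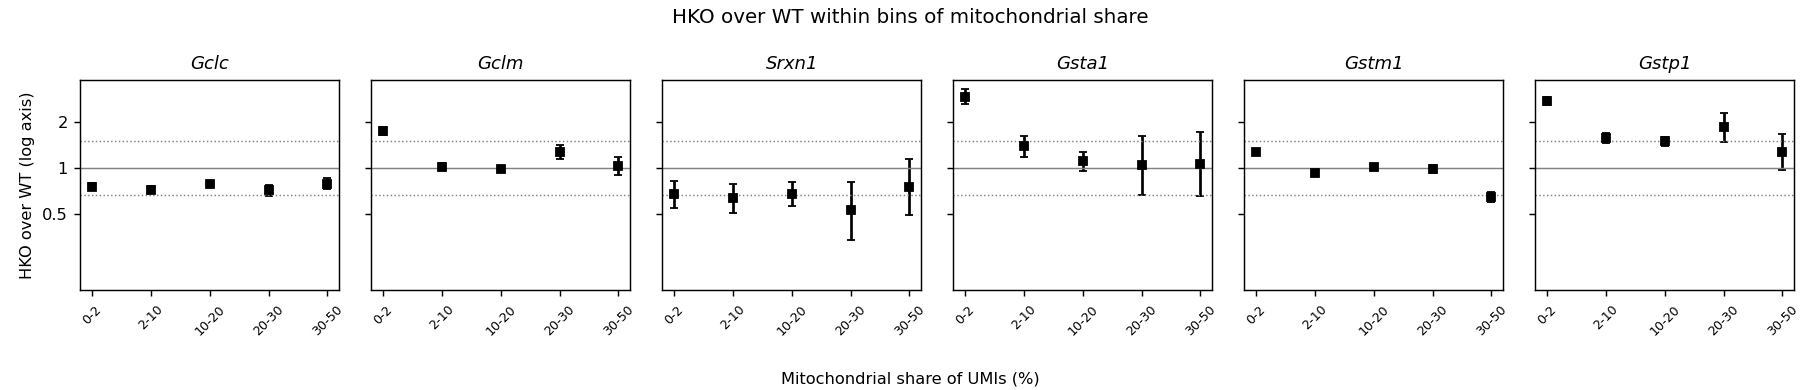
HKO over WT (log axis) of 6 members within bins of mitochondrial share of hepatocyte-like barcodes, from CPM of non-mitochondrial UMIs, with 95% intervals for counting error, the line at 1 and dotted lines at 1.5-fold. Gclc stays between 0.710 and 0.788 in every bin, while Gsta1 goes from 2.92 in the lowest bin to 1.07 in the highest.

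Position along the lobule was read by ranking hepatocyte-like barcodes of each library on 9 pericentral against 10 periportal genes, none of them a member. Genes kept out of the ranking followed it. Gulo went from 25.8 CPM of non-mitochondrial UMIs in the periportal to 242 in the pericentral tertile in WT and from 11.5 to 282 in HKO, and Gldc, a periportal gene of glycine breakdown, from 544 to 225 and from 379 to 108. Srxn1, Gsta1 and Gstm1 were at least 1.5-fold higher in the pericentral tertile of both libraries, 3 of the 8 members counted, against 3.52% of 7216 genes, and none was at least 1.5-fold lower in both, against 2.43%. The median log2 ratio of the 8 members was 0.51 in WT and 0.37 in HKO, and that of all genes -0.003 and 0.07. With barcodes thinned to 1500 UMIs the ratio of Gstm1 in WT was 1.44, short of 1.5-fold, and Gsta1 in WT fell short of it at up to 30% mitochondrial UMIs.

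Gstm1 stood at 847, 1448 and 1663 from the periportal through the middle to the pericentral tertile in WT and at 824, 1138 and 2197 in HKO, ratios of 1.96 (1.92 to 2.01) and 2.67 (2.59 to 2.74). In quintiles of the ranking it went from 845 to 1670 in WT and from 821 to 2503 in HKO. Srxn1 stood at 22.4, 36.9 and 47.3 in WT and at 16.4, 21.6 and 32.5 in HKO, ratios of 2.11 (1.84 to 2.44) and 1.98 (1.61 to 2.44). Both were ordered from periportal to pericentral in each library.

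Gsta1 was less regular. It stood at 26.0, 46.4 and 42.1 in WT, so that its middle tertile was the highest, and at 33.1, 72.9 and 91.6 in HKO. The ratios of pericentral over periportal were 1.62 (1.41 to 1.86) and 2.76 (2.41 to 3.17). With barcodes thinned to 1500 UMIs the WT ratio was 2.58. By quintile the highest value lay in quintile 4 in both libraries, with 51.0 in WT and 117 in HKO.

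Gsta2 was not pericentral, with 92.0, 91.4 and 59.3 in WT and 107, 117 and 70.3 in HKO, so that Gsta1 and its near copy had unlike profiles. Gstm2 and Gstm3 shared the direction of Gstm1, Gstm2 going from 7.0 to 56.8 in WT and from 6.5 to 149 in HKO. Gsta3 went from 724 to 1256 and from 847 to 1519. Several transferases outside the group were thus also higher in the pericentral tertile of both libraries.

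The ligase subunits were nearly flat along the lobule. Gclc had ratios of pericentral over periportal of 0.966 (0.937 to 0.997) in WT and 0.949 (0.905 to 0.994) in HKO, and Gclm 1.00 (0.965 to 1.05) and 1.04 (0.993 to 1.10). Gstp1 differed between the libraries, at 1.37 (1.28 to 1.47) in WT and 1.01 (0.945 to 1.08) in HKO, a difference that was not tested. Within the middle tertile of mitochondrial share these ratios were 1.02 in WT and 0.808 in HKO. Gstp1 was higher in HKO in each zone tertile, with 105 and 224 in the periportal, 150 and 284 in the middle and 144 and 226 in the pericentral tertile.

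Txnrd1 had ratios of 1.16 (1.07 to 1.25) in WT and 1.37 (1.23 to 1.52) in HKO, and Gsr 1.48 (1.35 to 1.61) and 1.23 (1.10 to 1.37). Both were higher pericentrally in each library by less than 1.5-fold. Nqo1 had 1.82 (1.38 to 2.41) and 1.49 (1.10 to 2.03) and Hmox1 1.35 (1.01 to 1.82) and 2.02 (1.49 to 2.74), both from few UMIs. Within the middle tertile of mitochondrial share Hmox1 had 2.67 in WT and 1.32 in HKO, and thinned to 1500 UMIs it had 0.422 in WT, so its course was not settled at this depth. Nqo1 in HKO ranged from 1.04 to 1.92 over the alternatives. Nfe2l2 itself went from 94.3 to 125 in WT and from 82.6 to 135 in HKO. Median mitochondrial share also differed along the ranking and was lowest in the middle tertile of both libraries, with 15.4%, 7.34% and 10.8% from the periportal to the pericentral tertile in WT and 13.8%, 4.98% and 7.50% in HKO. Median depth was 21528, 19459 and 21747 UMIs from the periportal to the pericentral tertile in WT and 7925.5, 2843 and 3685.5 in HKO, and its part in these differences was not tested. Within the middle tertile of mitochondrial share, Gstm1 and Srxn1 were still at least 1.5-fold higher in the pericentral tertile of both libraries, whereas Gsta1 stood at 1.18 (0.953 to 1.47) in WT and 1.57 (1.25 to 1.97) in HKO.

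**Figure D4:**
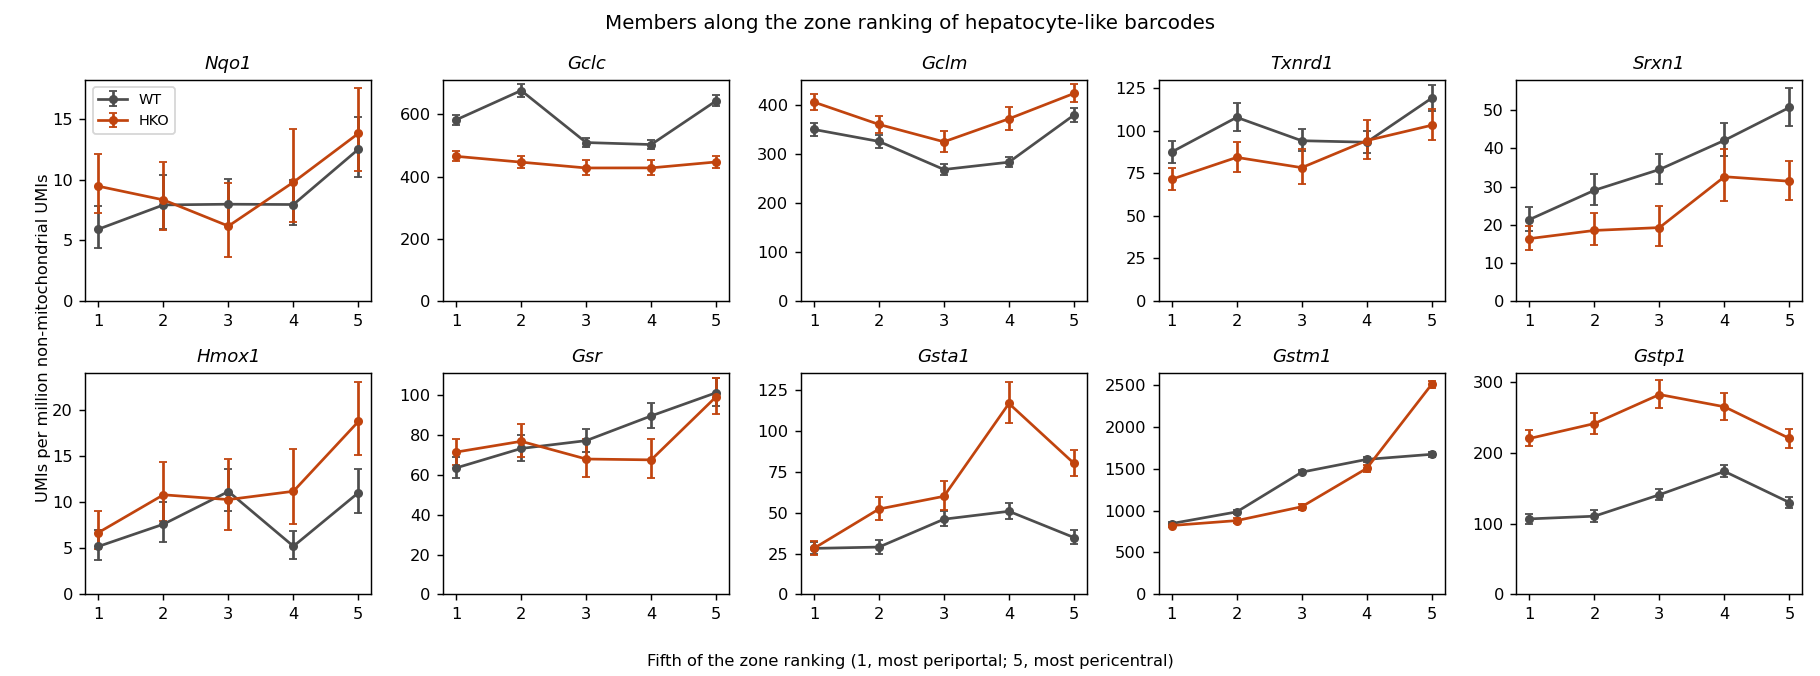
CPM of non-mitochondrial UMIs of each member in quintiles of the zone ranking of hepatocyte-like barcodes, from the most periportal (1) to the most pericentral (5), WT in grey and HKO in orange, 1 library each, with 95% intervals for counting error. Gstm1 goes from 845 to 1670 in WT and from 821 to 2503 in HKO, while Gclc shows no steady course.

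Because the libraries differed in depth, the share of barcodes with a UMI was compared after thinning each hepatocyte-like barcode to 1500 UMIs. Gstp1 was then found in 12.0% (10.6 to 13.6) of WT and 23.4% (22.0 to 24.8) of HKO barcodes, against 61.7% and 47.3% without thinning. In T and NK-like barcodes thinned alike, which should lack hepatocyte transcripts, it was found in 10.3% (6.30 to 15.6) of 185 WT barcodes and 7.29% (5.26 to 9.79) of 549 HKO barcodes, whose median depths were 5747 and 2516 UMIs. The WT share of Gstp1 thus lay within the interval of the T and NK-like share, and the HKO share lay above it.

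Gclc was found in 50.7% (48.4 to 53.0) of WT and 41.1% (39.5 to 42.8) of HKO hepatocyte-like barcodes, against 34.1% and 18.4% in T and NK-like ones. Gstm1 was found in 69.9% and 66.0%, against 72.4% and 37.0%, so its WT share did not exceed that of T and NK-like barcodes. Gsta1 was found in 3.99% (3.14 to 5.00) and 5.73% (4.99 to 6.55), against 2.70% and 1.64%. For Nqo1 the shares were 1.28% and 1.35%, against 1.08% and 0.182%. At this depth 8 of the 10 WT shares lay within the interval of the T and NK-like share, against 1 of the 10 HKO shares, that of Txnrd1. These counts are not alike between libraries, since the intervals were wider in WT, with 185 T and NK-like barcodes against 549 in HKO. Hepatocyte markers in T and NK-like barcodes also summed to more in WT, 33632 CPM against 18363. The T and NK-like class was no clean reference for free RNA in every member. There Txnrd1 was 1.43 times (1.14 to 1.77) free RNA in WT and 2.91 times (2.39 to 3.50) in HKO, and Gsr 1.38 times (1.09 to 1.72) and 2.01 times (1.57 to 2.55). In HKO alone Gclc at 1.63, Gstm1 at 1.36 and Gclm at 1.30 times also had intervals above free RNA.

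To place the members in their pathway, other genes were read in lists by role, beside the 2.38% of all genes at least 1.5-fold higher and the 4.34% at least 1.5-fold lower in HKO. Of 9 counted regulators of Nrf2, 0 were past 1.5-fold in either direction and the median log2 ratio of HKO over WT was 0.08. Nfe2l2 stood at 89.9 CPM in WT and 86.9 in HKO and Keap1 at 26.8 and 27.8. Of 6 further genes of glutathione synthesis and turnover, 0 were past 1.5-fold, with a median of -0.19. Gss, which adds the last amino acid of glutathione, stood at 61.2 and 48.1. Neither list held a gene past the fold used here.

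Of 18 other glutathione S-transferases, 1 was at least 1.5-fold higher, Gstm2 with 25.3 and 46.9 CPM and a ratio of 1.85 (1.71 to 2.01), and 0 were lower, with a median log2 ratio of 0.18. The count higher was 0 with no depth minimum and 5 with barcodes thinned to 1500 UMIs. Of 16 thioredoxin and peroxide enzymes, 1 was lower, Txnip, an inhibitor of thioredoxin, with 182 and 113 and a ratio of 0.621 (0.595 to 0.648), and the median was -0.03. Of 5 genes that supply NADPH, 1 was lower, Pgd of the pentose phosphate pathway, with 22.9 and 13.3 and a ratio of 0.582 (0.514 to 0.659), and the median was -0.25. The count lower was 2 at 5000 or more UMIs in both libraries, at up to 30% mitochondrial UMIs, or with no depth minimum. Of 13 other Nrf2 targets, 2 were lower, the epoxide hydrolase Ephx1 with 211 and 130 and the carboxylesterase Ces1g with 262 and 171, and the median was -0.06. Without barcodes under 2% mitochondrial UMIs 0 of these were past the fold, and with barcodes thinned or weighted equally 2 were higher and 3 lower. No list had a median past 1.5-fold in either direction.

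The course of each member over zone and mitochondrial state was compared with that of 6807 other genes over 18 points (3 zone tertiles by 3 mitochondrial tertiles in each library, on the log2 scale of CPM + 1, centred within the library). These points share library, depth and barcodes, so the correlations are descriptions. Gstp1 was most like Ddt (r = 0.994), Atp5h (0.991) and Ndufa12 (0.990). Gstm1 was most like S100a11 (0.956), 2010003K11Rik (0.956) and Lgals1 (0.953), and Gsta1 like Dnase2a (0.892), Psmd8 (0.887) and 1110038B12Rik (0.887). None of the genes nearest to a transferase was another transferase.

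Gclc was most like Zyg11b (0.942), Fbxo8 (0.935) and Prkacb (0.929), and Gclm like Set (0.953), Krcc1 (0.949) and Hspd1 (0.946). Srxn1 was most like Gm2788 (0.932), Fitm1 (0.910) and Tnfaip8l1 (0.900), Txnrd1 like Arl4a (0.904), Mgll (0.891) and Ppp2r2d (0.866), and Gsr like Reep5 (0.891), Keap1 (0.888) and Gpd1 (0.886). Among the members, Srxn1 and Gstm1 were the closest pair (0.88), followed by Gsta1 and Gstp1 (0.80), and Gclc and Gstp1 ran most opposite (-0.76). The ligase subunits were close to unrelated (-0.10). The group thus did not share a single course over the hepatocytes of these libraries.

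The members were then read in the other cells of the suspension. Since free hepatocyte RNA enters every droplet, the UMIs in each class were set beside those that free RNA of the same library would give, scaled by Alb. Of 73 pairs of a member and a class that could be read in both libraries, 7 (9.59%) were at least 2-fold above free RNA in both, against 34.9% of 48334 such pairs over all genes. They were Hmox1, Txnrd1 and Gsr in macrophage-like barcodes, Txnrd1 and Gsr in monocyte and dendritic-like barcodes, and Txnrd1 and Gsr in a mixed class with endothelial, macrophage and stellate markers. The glutathione S-transferases and the ligase subunits were in none of them.

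Hmox1 was by far the clearest. In the macrophage-like class it had 462 UMIs in 146 WT barcodes and 1145 UMIs in 329 HKO barcodes, or 457 and 631 CPM. These were 117 times (107 to 129) and 332 times (313 to 352) the UMIs expected from free RNA. The highest barcode held 113 of the 462 UMIs in WT and 76 of the 1145 in HKO. Hmox1 UMIs were found in 60 WT and 163 HKO barcodes, at median depths of 3447 and 2658 UMIs, at which a barcode without one is not shown to lack the transcript.

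Hmox1 was also above free RNA in endothelial-like barcodes, with 39 UMIs in WT and 20 in HKO, although 27 of the 39 lay in 1 barcode. In monocyte and dendritic-like barcodes it had 14 and 20 UMIs. In the mixed class with endothelial, macrophage and stellate markers it had 52 UMIs in 22 WT barcodes and 420 in 83 HKO barcodes. Free RNA would have given fewer than 3 UMIs in each of these, and so they were not among the 73 pairs. In hepatocyte-like barcodes the level of Hmox1 was 7.02 and 9.73 CPM, close to the 7.67 and 9.05 of free RNA.

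Txnrd1 stood at 188 and 203 CPM in macrophage-like barcodes, from 190 and 368 UMIs, which were 3.26 times (2.81 to 3.76) and 13.0 times (11.7 to 14.4) free RNA. Gsr stood at 160 and 208, from 162 and 378 UMIs, 2.92 times (2.49 to 3.40) and 14.7 times (13.3 to 16.3) free RNA. The multiples differed more between libraries than the levels did. The UMIs expected from free RNA rest on Alb, which made up 1.77% of macrophage-like UMIs in WT and 0.635% in HKO, and on the level of each gene in free RNA, 114 and 74.4 CPM for Txnrd1 and 108 and 67.4 CPM for Gsr. In monocyte and dendritic-like barcodes Gsr stood at 254 and 149 and Txnrd1 at 144 and 70.1.

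Gsr was highest in neutrophil-like barcodes, with 851 in WT and 740 in HKO. These rested on 25 UMIs in 6 barcodes and 62 UMIs in 34 barcodes, and were 12.3 times (7.97 to 18.2) and 28.7 times (22.0 to 36.8) free RNA. The WT barcodes also held all 5 mast cell and basophil markers (545 CPM, against 0 in HKO), lacked Ly6g, and had 10 of the 25 Gsr UMIs in 1 barcode, and the part of these in the WT level was not tested. In T and NK-like barcodes Gsr was 1.38 times free RNA in WT and 2.01 times (1.57 to 2.55) in HKO. Free RNA would have given fewer than 3 Gsr UMIs in the neutrophil-like class, and so this pair was not among the 73. As background, the enzyme restores glutathione in phagocytes during the oxidative burst.

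None of the 3 transferases was at least 2-fold above free RNA in both libraries in a class that could be read. In macrophage-like barcodes Gstm1 was 0.883 times, Gstp1 0.974 times and Gsta1 0.737 times free RNA in WT, and 1.75, 1.33 and 0.983 times in HKO. In stellate-like barcodes of HKO, Gstm1 was 3.20 times free RNA (2.91 to 3.51), but 246 of its 438 UMIs lay in 1 barcode. In WT it was 1.13 times, with 241 of 421 UMIs in 1 barcode. In the cholangiocyte-like class Gstm1 was 0.609 times free RNA in WT and 2.70 times in HKO, from 12 and 27 barcodes. The HKO excess in these small classes thus had no counterpart in WT.

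**Figure D5:**
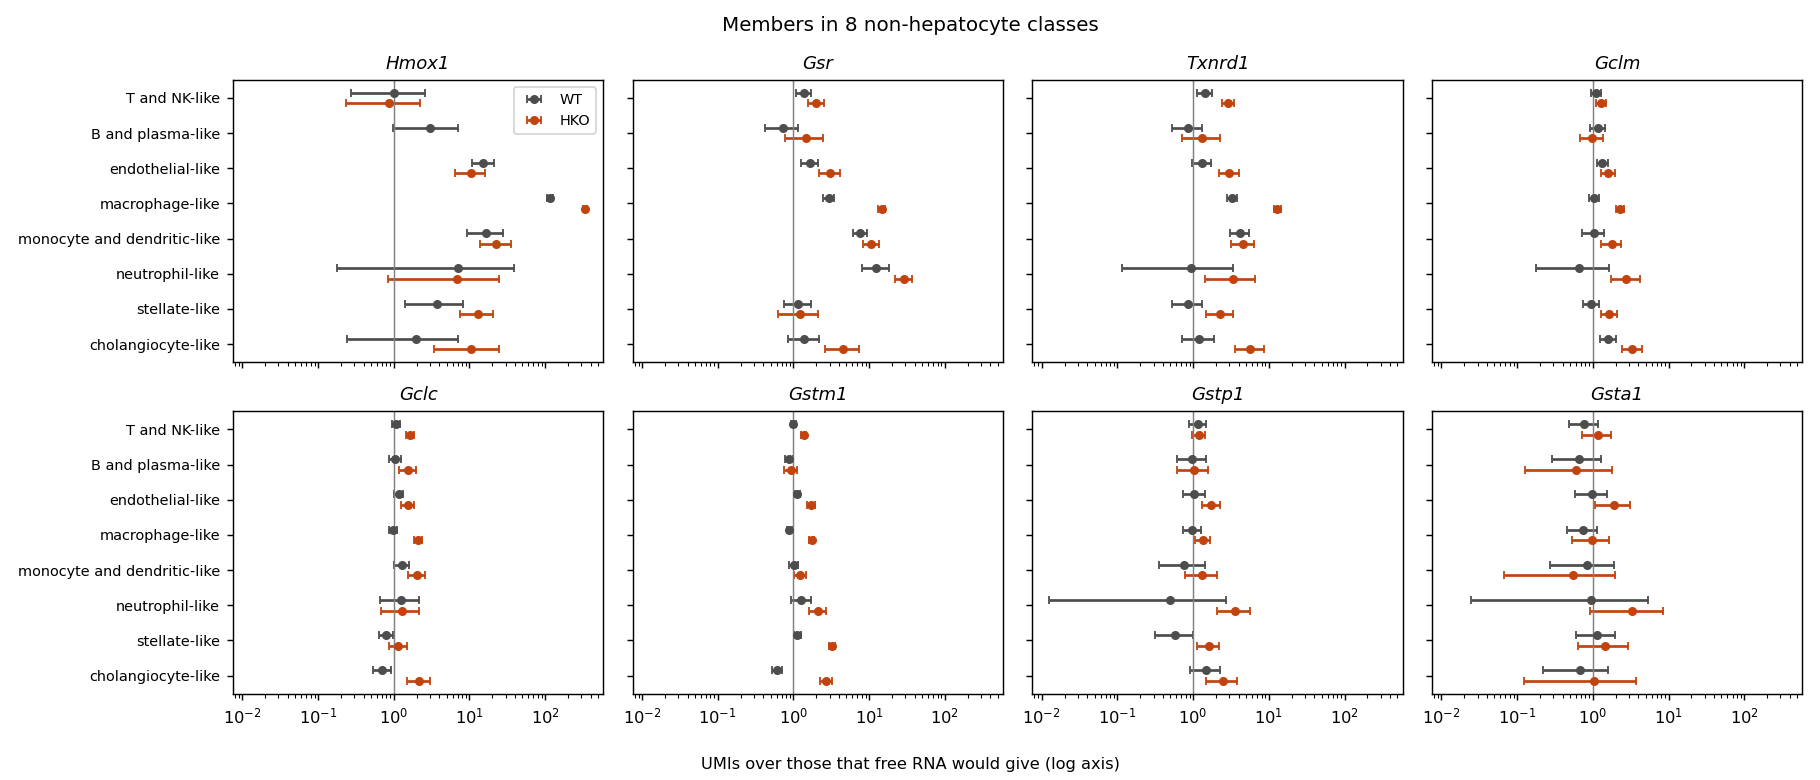
UMIs of 8 members in 8 non-hepatocyte classes divided by those that free RNA of the same library would give (log axis), WT in grey and HKO in orange, 1 library each, with 95% intervals for counting error and the line at 1. A class with no UMI of a gene has no point. Hmox1 in macrophage-like barcodes lies at 117 and 332, and Gstm1, Gstp1 and Gsta1 there lie between 0.737 and 0.974 in WT.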

How the data were processed

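Livers were digested by collagenase perfusion, hepatocytes were enriched on Percoll, and 10x Genomics libraries were sequenced. The deposited count matrices hold raw UMI counts per gene and barcode, which the authors made with Cell Ranger (7.1.0 per the file headers) on mm10. R 3.0 and Seurat 3 are named in the submitters' processing notes. Whether intronic reads were counted is not given in the sources used here. No column of the matrices was left unmapped, and barcode sequences shared between the libraries were not analysed here.

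Barcodes with at least 500 UMIs, 300 genes and at most 50% mitochondrial UMIs were kept (29620 WT, 18247 HKO). Scrublet's own threshold marked 0 doublets, so the barcodes with the highest scores were left out (7019 WT and 2664 HKO, at 0.8% per 1000 barcodes). Clusters (scanpy 1.11.5, Leiden resolution 1.0) were named from marker lists, a class other than hepatocyte needing at least 3 markers. Barcodes of no other class were taken as hepatocyte-like, without a marker of their own being required. Erythroid markers did not set a class, so a cluster of 135 barcodes led by hemoglobin genes stayed among them. For hepatocyte-like barcodes the minimum depth was set at 2 times the commonest depth (5309 UMIs in WT, 1632 in HKO), and those below it were taken as free RNA. Zone was ranked on z-scored log1p levels per 10000 non-mitochondrial UMIs.

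Values are summed UMIs in CPM (per 1000000) with exact Poisson intervals, ratios with exact conditional binomial intervals and shares with exact binomial (Clopper-Pearson) intervals, all at 95% and for counting error only, since PCR-amplified libraries of pooled cells are not replicates. Genes with a mean of at least 10 CPM were counted. The ratio, its interval and its call were run on simulated totals drawn with counting error alone, as the intervals assume. That run does not bear on the spread between barcodes or mice. All 10 members are named by rule, with the 3 genes most alike to each counted member and, per pathway list, the genes past 1.5-fold. The members and lists were chosen with earlier results of these data known.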

Additional observations from a re-analysis of the deposited data

Results flagged for a closer look

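Gstm1 differed in opposite directions between genotypes at the ends of the range of mitochondrial share in hepatocyte-like barcodes. In barcodes with 0 to 2% mitochondrial UMIs its ratio of HKO over WT was 1.28 (1.24 to 1.31), from 1570 CPM of non-mitochondrial UMIs in WT and 2003 in HKO. In barcodes with 30 to 50% it was 0.648 (0.600 to 0.698), from 776 and 502. The difference between these ratios was not tested, since each rests on 1 library per genotype.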

How the results depend on the processing

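The count of members at least 1.5-fold higher in HKO was 2, and became 1 with barcodes thinned to 1500 UMIs, with no depth minimum, without barcodes under 2% mitochondrial UMIs, or without the highest barcode of each library, and 0 at a fold of 2. The count lower in HKO was 1, and became 0 with barcodes weighted equally, thinned, or at a fold of 2. At 1.5-fold the higher member lost was Gsta1 each time and the lower one Srxn1. Over all 12 alternatives the ratio of Gstp1 ranged from 1.61 to 2.25, that of Gsta1 from 1.06 (no depth minimum) to 1.79, that of Srxn1 from 0.525 to 0.711 and that of Gclc from 0.689 to 0.778. Weighting the 5 bins of mitochondrial share equally was chosen after seeing the data. Gstm1 turned to 1.06 with barcodes weighted equally, 1.06 thinned, 1.01 at up to 30% mitochondrial UMIs, 1.00 per non-mitochondrial UMIs and 1.03 with bins weighted equally, and Gsr to 1.02 without barcodes under 2%. Median log2 ratios moved with no depth minimum to -0.41 for glutathione synthesis, -0.16 for other glutathione S-transferases (from 0.18) and -0.21 for thioredoxin and peroxide enzymes, and the last turned to 0.22 weighted equally, 0.16 thinned and 0.14 without barcodes under 2%. Of the zone ratios, Gclc in WT became 1.01 weighted equally, 1.13 thinned, 1.01 per all UMIs and 1.09 within the middle mitochondrial tertile, Gclc in HKO 1.02 within that tertile, and Hmox1 in WT 0.422 thinned. Of the mitochondrial ratios, Gclc in WT became 0.906 per all UMIs, Srxn1 in HKO 1.00 within the middle zone tertile and Gsr in WT 1.01 thinned. Gsta1 over free RNA in endothelial-like HKO barcodes became 0.649 with doublets kept. The causes of these shifts were not tested. The other 94 of 108 alternatives to the 13 summary values kept them within 1.5 times or within their interval. Values of single genes were less stable. Of their alternatives, 569 stayed within the interval, 16 changed side as given above and 167 moved beyond the interval, among them the HKO over WT ratio of Hmox1, at 2.11 thinned (from 1.39). No paired analysis was possible because each genotype has 1 library. With 1 library per genotype no alternative bears on the spread between mice, and Nqo1 and Hmox1 were too scarce in hepatocyte-like barcodes to be counted.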
